A study of Mus musculus with 42 samples.

Results

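The genes described here are 10 cytosolic glutathione S-transferases of mouse liver: Gstm1, Gstm2, Gstm3, Gstm4 and Gstm6 of the mu class, Gsta2 and Gsta4 of the alpha class, Gstp1 of the pi class, and Gstt1 and Gstt3 of the theta class. The rule names them by symbol and uses no measured value, although they were proposed with earlier results of these data known. All 10 were found among the 55573 gene IDs of the acute and of the chronic count table. Messenger RNA was counted in livers of 42 male C57B6/J mice, 6 to a group. In the acute arm the mice were given corticosterone together with enzalutamide (CORT+ENZA), enzalutamide (ENZA), corticosterone (CORT) or vehicle. In the chronic arm they were given CORT+ENZA, CORT or vehicle, and chronic ENZA without CORT was not analysed here. CORT is the main glucocorticoid of mice, ENZA is an antagonist of the androgen receptor, and the series asks how the hormone systems interact in liver. No mouse carried a transgene or a deletion according to the labels, which give no dose, route or number of days.

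Glutathione S-transferases join the tripeptide glutathione to reactive, electron-poor compounds, which makes these more soluble and ready for export from the cell. Hepatocytes hold much of the enzyme of the body, and the classes differ in the compounds they accept: alpha enzymes act on lipid peroxides and the lipid aldehyde 4-hydroxynonenal, mu enzymes on many epoxides and aromatic electrophiles, and theta enzymes on small halogenated compounds. Transcription of several mu and alpha genes is known to be raised by the oxidant sensor NRF2 and by the xenobiotic receptors CAR and PXR, and Gstp1 is known for higher levels in male than in female mouse liver.

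The mu genes lie side by side on the minus strand of chromosome 3 (GRCm38): Gstm6 at chr3:107938847-107943749, Gstm3 at chr3:107963696-107969283, Gstm2 at chr3:107981702-107986453, Gstm1 at chr3:108012255-108017973 and Gstm4 at chr3:108040408-108044894. Gsta4 (chr9:78182774-78209349, plus strand) and Gsta2 (chr9:78331018-78355788, minus strand) lie on chromosome 9. Gstp1 is at chr19:4035407-4037985, and the theta neighbours Gstt3 and Gstt1 are at chr10:75774115-75781414 and chr10:75783813-75798584, all on the minus strand. Each of the 5 mu genes has a coding sequence of 654 bases. The Gstm1 and Gstm3 coding sequences match at 89.4% of positions, against 85.9% for Gstm1 and Gstm2, 82.9% for Gstm1 and Gstm6 and 80.1% for Gstm1 and Gstm4. In the theta pair 75.4% of aligned positions match, and in the alpha pair 66.1%.

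The following 60-base stretches are shown as examples of how alike and how different the coding sequences of the mu genes can be. They are shorter than the 100 bp reads, so they do not by themselves set a limit on assigning reads. In coding bases 389 to 448 (counted from the first base of the start codon), where Gstm1 and Gstm3 do not differ at all, capitals mark each base that differs from Gstm1:
Gstm1: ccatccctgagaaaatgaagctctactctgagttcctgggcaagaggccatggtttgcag
Gstm2: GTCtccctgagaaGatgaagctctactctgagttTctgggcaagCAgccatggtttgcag
Gstm3: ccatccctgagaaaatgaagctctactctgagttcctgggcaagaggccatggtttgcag
Gstm4: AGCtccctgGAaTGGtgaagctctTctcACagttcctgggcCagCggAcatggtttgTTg
Gstm6: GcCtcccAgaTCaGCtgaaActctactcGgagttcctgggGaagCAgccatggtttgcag

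Here Gstm2 differed from Gstm1 at 7 bases, Gstm3 at 0, Gstm4 at 16 and Gstm6 at 12. At the end of the coding sequence, bases 595 to 654, the genes are easier to separate, and capitals again mark differences from Gstm1:
Gstm1: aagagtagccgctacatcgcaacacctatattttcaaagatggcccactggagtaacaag
Gstm2: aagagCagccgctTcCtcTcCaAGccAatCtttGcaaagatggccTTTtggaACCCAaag
Gstm3: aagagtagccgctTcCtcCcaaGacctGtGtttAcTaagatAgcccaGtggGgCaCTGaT
Gstm4: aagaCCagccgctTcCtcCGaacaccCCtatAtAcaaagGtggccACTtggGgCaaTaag
Gstm6: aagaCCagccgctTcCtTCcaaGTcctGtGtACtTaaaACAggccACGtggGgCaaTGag

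In this second stretch Gstm2 differed from Gstm1 at 18 bases, Gstm3 at 16, Gstm4 at 17 and Gstm6 at 23. Over whole transcripts, 64.2% of the 50-base stretches of Gsta2 and 62.3% of those of Gstp1 also occur in a transcript of another gene, mainly Gsta1 for Gsta2 and Gstp2 for Gstp1. The share was 28.8% for Gstm3, 23.1% for Gstm1 and 11.5% for Gstm6, so that the counts of these 5 genes are uncertain where reads cannot be assigned to 1 copy. It was 9.36% for Gstm2, 3.20% for Gstt3 and 0 for Gstm4, Gsta4 and Gstt1. Exons of Gstt3 also overlap 524 exon bases of the predicted gene Gm20441 on the same strand. Pairs with more than 1 alignment were 9.34 to 12.8% of an acute library and 18.6 to 22.7% of a chronic one, and their part in the level of each member was not tested.

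The acute libraries held 18674151 to 20464521 gene counts and the chronic libraries 15381724 to 19581723. The defining hepatocyte markers (Alb, Apoa1, Apob, Ttr, Serpina1c and Cps1) were detected in every group, as the liver label requires. Every member passed the low-count filter in both arms, and the lowest raw count of any member in any library was 90. The RNA of acute and chronic livers was extracted with different kits, so kit and duration cannot be told apart and levels are not compared between the arms. In whole liver, fewer cells of a type and less RNA per cell cannot be told apart. Levels below are CPM, counts relative to library size after scaling, as mean ± SD with n = 6 mice per group unless a range is named. The share of all genes whose groups do not overlap was not computed, so full separation of a member is a description only.

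Levels of different genes are compared here only per kilobase (kb) of the merged exons of all annotated transcripts. On this scale Gstm1 was first in all 7 groups. Merged exons span 1473 bases for Gstm1, 1548 for Gstp1 and 3842 for Gstt3, while the longest single transcripts have 1289, 821 and 1985 bases. The order of the members, that of Gstm1 and Gstp1 included, can therefore depend on the length used, and other lengths were not tried. In acute vehicle livers Gstm1 stood at 1232 ± 204 CPM per kb, followed by Gstp1 at 981 ± 136 and Gstt1 at 176 ± 31.04. A middle tier followed: Gstm3 (67.5 ± 14.0), Gstm2 (53.0 ± 9.69) and Gstm6 (50.5 ± 7.89), whose SD ranges overlapped from one gene to the next, and Gstm4 (37.0 ± 5.68). The lowest levels were those of Gsta4 (28.3 ± 6.11), Gsta2 (18.5 ± 6.76) and Gstt3 (9.71 ± 1.65). Gstm3 changed place in this order: it was second in chronic CORT+ENZA livers, at 777 ± 460 CPM per kb, and sixth in chronic CORT (37.8 ± 5.66) and chronic vehicle livers (33.0 ± 14.5). In chronic CORT+ENZA livers its mean stood below that of Gstm1 (2463 ± 789) and above those of Gstp1 (308 ± 65.1) and Gstt1 (299.5 ± 57.2), and the SD ranges of Gstm3, Gstp1 and Gstt1 overlapped.

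Acute ENZA was set against vehicle to ask what the antiandrogen does in the absence of added CORT. Of the 10 members, 6 were higher and none lower, among 13733 genes tested by edgeR's quasi-likelihood test with Benjamini-Hochberg adjustment at 0.05. Over all genes 1.31% were called, and 0.845% were called as higher. The median log2 fold change was 0.78 over the members and -0.0019 over all genes tested. Both alpha genes, 3 of the 5 mu genes and Gstt3 rose, while Gstp1 did not pass the test.

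Among the mu genes, Gstm3 had 207.5 to 1764 CPM (median 329) in acute ENZA livers and 62.1 to 105 CPM (median 97.1) in acute vehicle livers. All 6 ENZA mice lay above every vehicle mouse, and 1 ENZA mouse, L29A, lay far above the others of its group. The log2 fold change was 2.63 ± 0.42 (SE; 6.19-fold; edgeR adjusted p = 0.00222). Gstm1 had 1928 to 8525 CPM (median 2900) in ENZA livers and 1523 to 2291 CPM (median 1747) in vehicle livers, and the groups overlapped. It rose by 1.02 ± 0.24 (edgeR adjusted p = 0.035). Gstm4, whose transcripts share no 50-base stretch with another gene, had 71.0 to 181.7 CPM (median 90.1) in ENZA livers, against 50.2 to 74.4 CPM (median 62.0) in vehicle livers. These groups overlapped slightly, and Gstm4 rose by 0.70 ± 0.16 (edgeR adjusted p = 0.0273). Gstm2 (log2 fold change 0.67 ± 0.21, edgeR adjusted p = 0.118) and Gstm6 (0.21 ± 0.13, edgeR adjusted p = 0.436) were not called.

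Of the alpha genes, Gsta4, which is known for clearing 4-hydroxynonenal, had 50.9 to 88.1 CPM (median 64.4) in acute ENZA livers and 27.2 to 47.5 CPM (median 35.5) in acute vehicle livers. The groups did not overlap, and Gsta4 rose by 0.87 ± 0.15 (edgeR adjusted p = 0.00349). Gsta2 had 22.99 to 114.7 CPM (median 41.9) in ENZA livers and 14.5 to 35.4 CPM (median 19.6) in vehicle livers, with overlap, and rose by 1.23 ± 0.31 (edgeR adjusted p = 0.0474). This call lay close to the threshold: it was lost in 19 of the 24 fits that left out 1 mouse, with edgeR adjusted p up to 0.114. In the theta class, Gstt3 had 51.0 to 129 CPM (median 69.3) in ENZA livers and 32.6 to 47.7 CPM (median 34.0) in vehicle livers without overlap, a rise of 1.06 ± 0.23 (edgeR adjusted p = 0.0212). Its neighbour Gstt1 was not called (0.28 ± 0.13, edgeR adjusted p = 0.312), nor was Gstp1 (-0.14 ± 0.12, edgeR adjusted p = 0.641). Gstp1 averaged 1382 ± 158 CPM in ENZA livers and 1518 ± 210 CPM in vehicle livers.

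**Figure D1:**
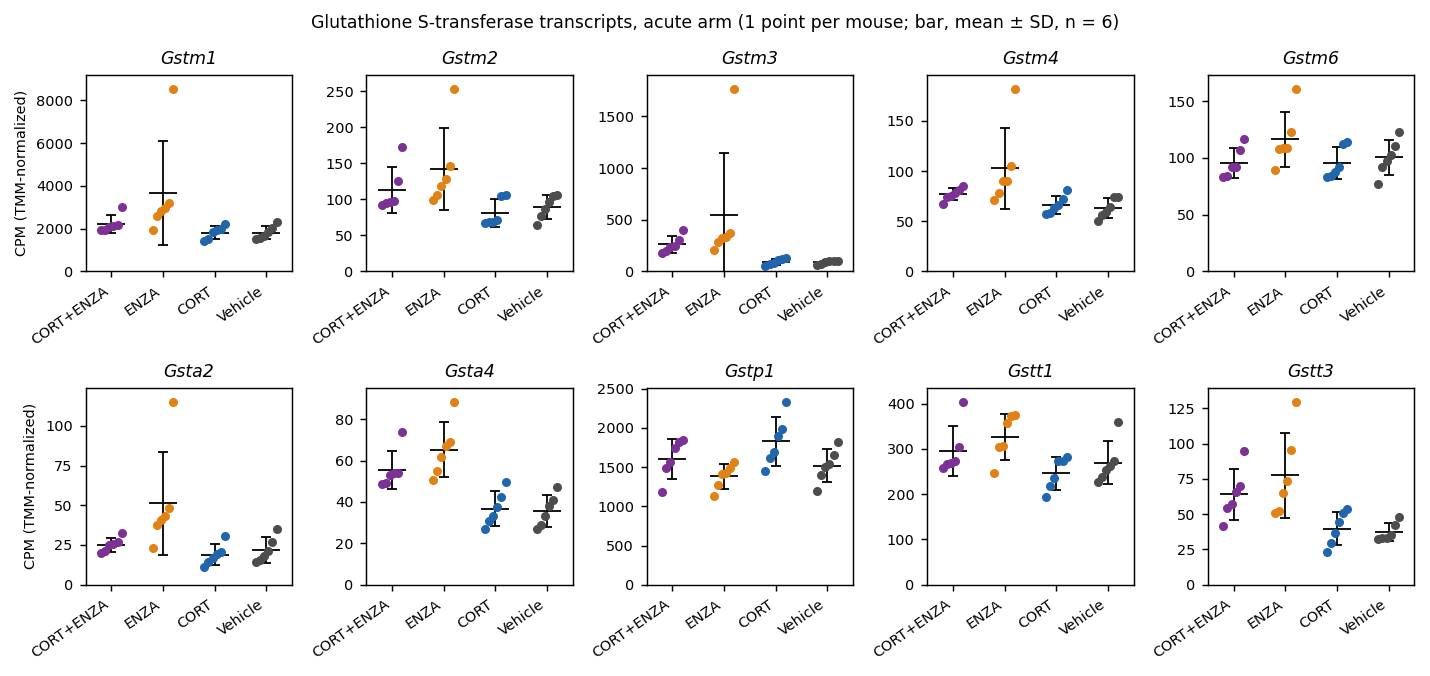
Levels of the 10 members in CPM (linear axis) in each of the 6 mice of the acute CORT+ENZA, ENZA, CORT and vehicle groups, with the mean and SD of each group. The lower SD bar of Gstm3 in ENZA livers is cut because it would reach below 0. For Gstm3, Gsta4 and Gstt3 every ENZA mouse lies above every vehicle mouse, and mouse L29A stands alone at the top of the ENZA group for Gstm1 (8525 CPM) and Gstm3 (1764 CPM).

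The size of the acute ENZA rise of Gstm1 and Gstm3 depended on mouse L29A. It had 8525 CPM of Gstm1 where the other 5 ENZA mice had 1928 to 3185, and 1764 CPM of Gstm3 where they had 207.5 to 369.8. The same mouse was also highest in markers of other cells: the 8 Kupffer cell markers summed to 616 CPM, against 156.5 to 257.7 CPM in the other ENZA mice, the 5 T and NK cell markers to 5.73 CPM against 1.09 to 2.32, and the 4 B cell markers to 8.41 CPM against 3.02 to 7.03. Its 6 hepatocyte markers summed to 86880 CPM, against 104900 to 137300 CPM in the others. The part of these differences in the levels of the members was not tested. Without L29A, 3 members were called: Gstm3 (1.78 ± 0.22, edgeR adjusted p = 4.56e-05), Gsta4 (0.76 ± 0.15, edgeR adjusted p = 0.0123) and Gstm4 (0.46 ± 0.11, edgeR adjusted p = 0.0498). Gstm1 (0.57 ± 0.14, edgeR adjusted p = 0.0576), Gstt3 (0.85 ± 0.21, edgeR adjusted p = 0.0582) and Gsta2 (0.82 ± 0.24, edgeR adjusted p = 0.114) were then no longer called. L29A was not the only mouse whose removal ended a call: over the 24 mice left out in turn, the call was lost in 6 fits for Gstm1, 5 for Gstm4 and 3 for Gstt3, and in none for Gstm3 and Gsta4.

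No member was called in acute CORT livers. Over all genes 1.62% were called in acute CORT against vehicle, and 0 of the 10 members were. DESeq2 and limma-voom also called 0, and at an unadjusted p under 0.05 edgeR gave 1, Gstp1. Gstp1 averaged 1828 ± 312 CPM in CORT livers and 1518 ± 210 CPM in vehicle livers (log2 fold change 0.27 ± 0.12, edgeR adjusted p = 0.312). Gstm3 was at 92.8 ± 27.8 CPM in CORT livers, against 88.5 ± 18.4 CPM in vehicle livers, and the 95% interval of its log2 fold change ran from -0.72 to 0.86.

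Adding ENZA to CORT in the acute arm raised no member past the threshold in edgeR, where 0.175% of all genes were called, and 5 members had an unadjusted p under 0.05. Gstm3 nonetheless had 181.5 to 401 CPM (median 241) in acute CORT+ENZA livers and 54.8 to 125.8 CPM (median 92.7) in acute CORT livers, with no overlap between the groups. Its log2 fold change was 1.49 ± 0.41 (edgeR adjusted p = 0.267). Gsta4 averaged 55.4 ± 9.23 CPM in CORT+ENZA livers and 36.8 ± 8.34 CPM in CORT livers (0.59 ± 0.15, edgeR adjusted p = 0.183). DESeq2 called both genes, Gstm3 with an adjusted p of 0.0487 and Gsta4 with an adjusted p of 0.0484, and limma-voom with sample quality weights called the same pair. Without ENZA mouse L29A, which enters this comparison only through the shared estimate of spread, edgeR called Gstm3 (1.49 ± 0.21, adjusted p = 0.000707) and no other member.

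Against vehicle, acute CORT+ENZA raised 2 members, Gstm3 (1.56 ± 0.41, edgeR adjusted p = 0.0444) and Gsta4 (0.63 ± 0.15, edgeR adjusted p = 0.025), where 2.47% of all genes were called. Both groups of 6 were fully apart for these genes, and the median log2 fold change of the members was 0.29. The Gstm3 call was lost in 17 of the 24 fits that left out 1 mouse (edgeR adjusted p up to 0.0956), and that of Gsta4 in 3, without CORT+ENZA mouse L36A, vehicle mouse L1A or vehicle mouse L25A, which left no member called. Gstt3 did not pass (0.78 ± 0.23, edgeR adjusted p = 0.0703). The comparisons of ENZA, CORT and CORT+ENZA with vehicle share the vehicle mice.

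Set directly against acute ENZA, acute CORT+ENZA livers showed lower fitted values for 9 of the 10 members, and none was called (1.81% of all genes called; 5 members with an unadjusted p under 0.05, and 1 called by DESeq2, Gsta2). Gsta2 averaged 25.2 ± 4.55 CPM in CORT+ENZA livers and 51.2 ± 32.3 CPM in ENZA livers (log2 fold change -1.02 ± 0.30, edgeR adjusted p = 0.0885). For Gstm3 the value was -1.07 ± 0.40 (edgeR adjusted p = 0.19), and without mouse L29A it was -0.22 ± 0.21. For Gstm1 it was -0.73 ± 0.24 (edgeR adjusted p = 0.133), and without that mouse -0.29 ± 0.14. The interaction of CORT and ENZA, the test of whether their acute effects add on the log scale, called 0% of all genes and 0 members; 2 members had an unadjusted p under 0.05, and DESeq2 and limma-voom called 0 as well. All 10 interaction values were below 0, that of Gstm3 at -1.14 ± 0.57 with all mice and -0.29 ± 0.30 without L29A.

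In the chronic arm, where ENZA without CORT was not analysed, the question was what ENZA added to CORT does over longer treatment. In chronic CORT+ENZA against CORT, 7 members rose and 1 fell, where 11.8% of 13099 genes were called and 6.99% were called as higher. The median log2 fold change was 1.06 over the members and -0.0031 over all genes tested. Gstm3 had 398 to 1934 CPM (median 925) in chronic CORT+ENZA livers, against 38.6 to 57.1 CPM (median 52.8) in chronic CORT livers. Its lowest CORT+ENZA mouse lay well above its highest CORT mouse, and the log2 fold change was 4.36 ± 0.38 (20.6-fold; edgeR adjusted p = 1.08e-06). Gstm1 had 2567 to 5626 CPM (median 3407) in CORT+ENZA livers and 1063 to 1528 CPM (median 1224) in CORT livers. The groups were apart, and Gstm1 rose by 1.53 ± 0.16 (2.89-fold; edgeR adjusted p = 5.56e-06).

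Among the remaining mu genes, Gstm4 had 82.7 to 141 CPM (median 106.8) in chronic CORT+ENZA livers and 47.0 to 54.7 CPM (median 49.98) in chronic CORT livers, again without overlap. Its rise was 1.13 ± 0.12 (edgeR adjusted p = 6.01e-06). Gstm2 had 135 to 335 CPM (median 238) in CORT+ENZA livers and 67.8 to 184 CPM (median 116.9) in CORT livers. Those groups overlapped, and Gstm2 rose by 0.98 ± 0.29 (edgeR adjusted p = 0.033), a call that was lost in 6 of the 18 fits that left out 1 mouse, those without CORT+ENZA mouse 16, 17 or 18 or CORT mouse 1, 25 or 27 (edgeR adjusted p up to 0.0763). Gstm6 was not called (0.34 ± 0.12, edgeR adjusted p = 0.084). The counts of the 7 genes Gstm1 to Gstm7 were also summed, because those of Gstm1, Gstm3 and Gstm6 are uncertain. Gstm4, Gstm5 and Gstm7 share no 50-base stretch with another gene. The sums were 5167 ± 1849 CPM in chronic CORT+ENZA livers, 1636 ± 148 CPM in chronic CORT livers and 1484 ± 140 CPM in chronic vehicle livers. Most of each sum is Gstm1 itself.

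Both alpha genes rose too. Gsta4 had 60.6 to 105 CPM (median 85.5) in chronic CORT+ENZA livers and 21.0 to 52.5 CPM (median 25.0) in chronic CORT livers, with a log2 fold change of 1.51 ± 0.20 (edgeR adjusted p = 7.56e-05). Gsta2 had 53.1 to 81.3 CPM (median 63.3) in CORT+ENZA livers and 8.37 to 44.4 CPM (median 15.5) in CORT livers, with a log2 fold change of 1.75 ± 0.30 (edgeR adjusted p = 0.00102). For neither gene did the groups overlap. Summed with its near copies Gsta1, Gm3776 and Gm10639, Gsta2 gave 72.9 ± 12.2 CPM in CORT+ENZA livers and 19.6 ± 13.1 CPM in CORT livers. In single CORT+ENZA mice Gsta1 had 1.65 to 21.2 CPM, Gm3776 0.39 to 6.57 CPM and Gm10639 0.051 to 0.35 CPM. Because the copies share stretches with Gsta2, their part in its level was not measured.

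The pi gene moved in the other direction, while Gstt1 of the theta class rose as well. Gstp1 fell: it had 367 to 637 CPM (median 452) in chronic CORT+ENZA livers and 566 to 911 CPM (median 656) in chronic CORT livers, with some overlap (log2 fold change -0.55 ± 0.15, edgeR adjusted p = 0.023). Its near copy Gstp2 stood at 1.24 ± 0.76 CPM in CORT+ENZA livers and 0.93 ± 0.52 CPM in CORT livers. Gstt1 had 284 to 523 CPM (median 486) in CORT+ENZA livers and 273 to 377 CPM (median 341.5) in CORT livers. The lowest CORT+ENZA mouse, number 18, fell inside the CORT range, and Gstt1 rose by 0.47 ± 0.13 (edgeR adjusted p = 0.0215). Of the 18 fits that left out 1 mouse, the Gstp1 call was lost in 4 (CORT+ENZA mouse 6 or 17, CORT mouse 25 or 27) and the Gstt1 call in 2 (CORT+ENZA mouse 16, CORT mouse 25). The highest edgeR adjusted p was 0.0692 for Gstp1 and 0.0521 for Gstt1, both without CORT mouse 25. Gstt3 was not called (0.40 ± 0.18, edgeR adjusted p = 0.166); without mouse 18 it was (0.51 ± 0.15, edgeR adjusted p = 0.0367).

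**Figure D2:**
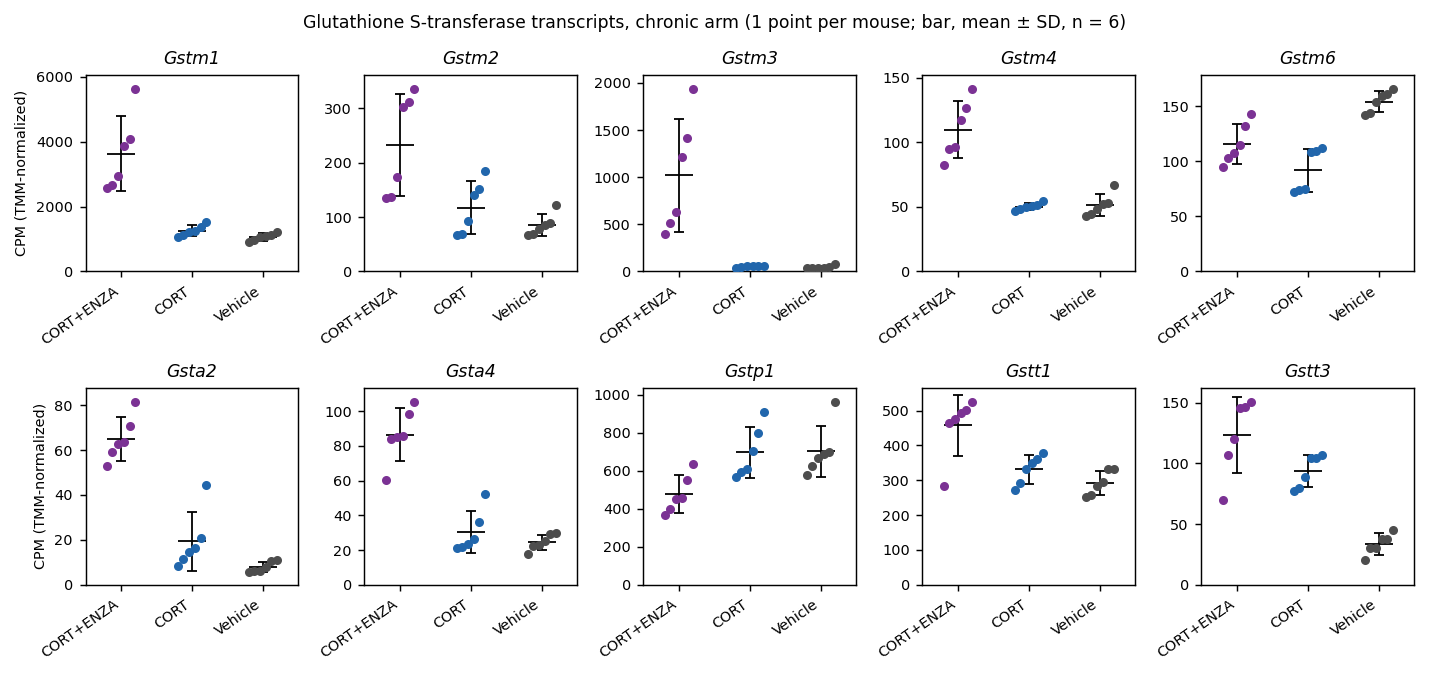
Levels of the 10 members in CPM (linear axis) in each of the 6 mice of the chronic CORT+ENZA, CORT and vehicle groups, with the mean and SD of each group. Gstm1, Gstm3, Gstm4, Gsta2 and Gsta4 are higher in every CORT+ENZA mouse than in any CORT mouse, Gstt3 is higher in every CORT mouse than in any vehicle mouse, and Gstm6 is lower in every CORT mouse than in any vehicle mouse.

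Hepatocyte and other markers moved with the chronic groups. The 6 hepatocyte markers summed to 65750 to 84900 CPM in chronic CORT+ENZA livers, 95300 to 129200 CPM in chronic CORT livers and 104300 to 124100 CPM in chronic vehicle livers, so the CORT+ENZA range lay below both others. The 8 Kupffer cell markers summed to 135 to 620 CPM in CORT+ENZA livers, 98.3 to 172 CPM in CORT livers and 111 to 343 CPM in vehicle livers. In CORT+ENZA mouse 18 alone, the Kupffer sum was 620 CPM against 135 to 257 CPM in its group, and the 9 pericentral hepatocyte markers summed to 3054 CPM against 7630 to 9842 CPM. The 4 B cell markers summed to 0.56 to 2.43 CPM in CORT+ENZA livers, 0.052 to 1.32 CPM in CORT livers and 2.83 to 7.50 CPM in vehicle livers, where the vehicle range lay above both others. The 5 T and NK cell markers summed to 0.55 to 4.11 CPM in CORT+ENZA livers, 0.27 to 0.85 CPM in CORT livers and 1.33 to 2.75 CPM in vehicle livers, and the CORT range lay wholly below that of vehicle. The part of these markers in the levels of the members was not tested. Without mouse 18, Gstm3 still rose by 4.07 ± 0.34 and Gstm1 by 1.35 ± 0.13 against CORT, and 8 members were called.

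Chronic CORT alone changed fewer members: 2 rose and 1 fell against vehicle, where 18.3% of all genes were called. Gstt3 had 77.4 to 107 CPM (median 96.6) in chronic CORT livers and 19.97 to 45.3 CPM (median 34.0) in chronic vehicle livers. The groups were fully apart, with a log2 fold change of 1.48 ± 0.19 (2.79-fold; edgeR adjusted p = 3.36e-05). Gsta2 had 8.37 to 44.4 CPM (median 15.5) in CORT livers and 5.59 to 10.8 CPM (median 7.01) in vehicle livers, and 5 of the 6 CORT mice lay above every vehicle mouse. It rose by 1.30 ± 0.32 (edgeR adjusted p = 0.00909), and by 0.86 ± 0.22 (edgeR adjusted p = 0.0125) without CORT mouse 1, which had the highest value. Gstm6 fell: it had 72.6 to 112 CPM (median 91.7) in CORT livers and 142 to 165.7 CPM (median 157) in vehicle livers, without overlap (-0.75 ± 0.12, edgeR adjusted p = 0.000393). The B cell and T and NK cell marker sums given above were likewise lower in every CORT mouse than in any vehicle mouse, and their part in the level of Gstm6 was not tested. Gstm3 (0.19 ± 0.34), Gstm1 (0.24 ± 0.16) and Gstp1 (-0.014 ± 0.15) were not called, with edgeR adjusted p of 0.735, 0.308 and 0.962.

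Against chronic vehicle, chronic CORT+ENZA moved all 10 members past the threshold, 8 higher and 2 lower, where 18.6% of all genes were called and 10.3% were called as higher. Among the 3 chronic comparisons each pair shares 1 group of mice. The median log2 fold change was 1.61 over the members. Gstm3 had 31.2 to 80.9 CPM (median 36.2) in vehicle livers and rose by 4.56 ± 0.38 (23.5-fold; edgeR adjusted p = 3.1e-07). For Gsta2 the rise was 3.05 ± 0.33 (8.28-fold; edgeR adjusted p = 4.55e-06), and for Gstt3 1.88 ± 0.19 (edgeR adjusted p = 1.74e-06). Gsta4 (1.82), Gstm1 (1.77), Gstm2 (1.45), Gstm4 (1.10) and Gstt1 (0.65) also rose on the log2 scale. The groups overlapped for Gstt1 alone among the 8, and the share of all genes without overlap was not computed. Gstp1 (-0.56 ± 0.15, edgeR adjusted p = 0.0128) and Gstm6 (-0.41 ± 0.12, edgeR adjusted p = 0.0246) fell. The Gstm6 call was lost in 3 of the 18 fits that left out 1 mouse, with edgeR adjusted p up to 0.0568, and the other 9 calls were kept in all 18.

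**Figure D3:**
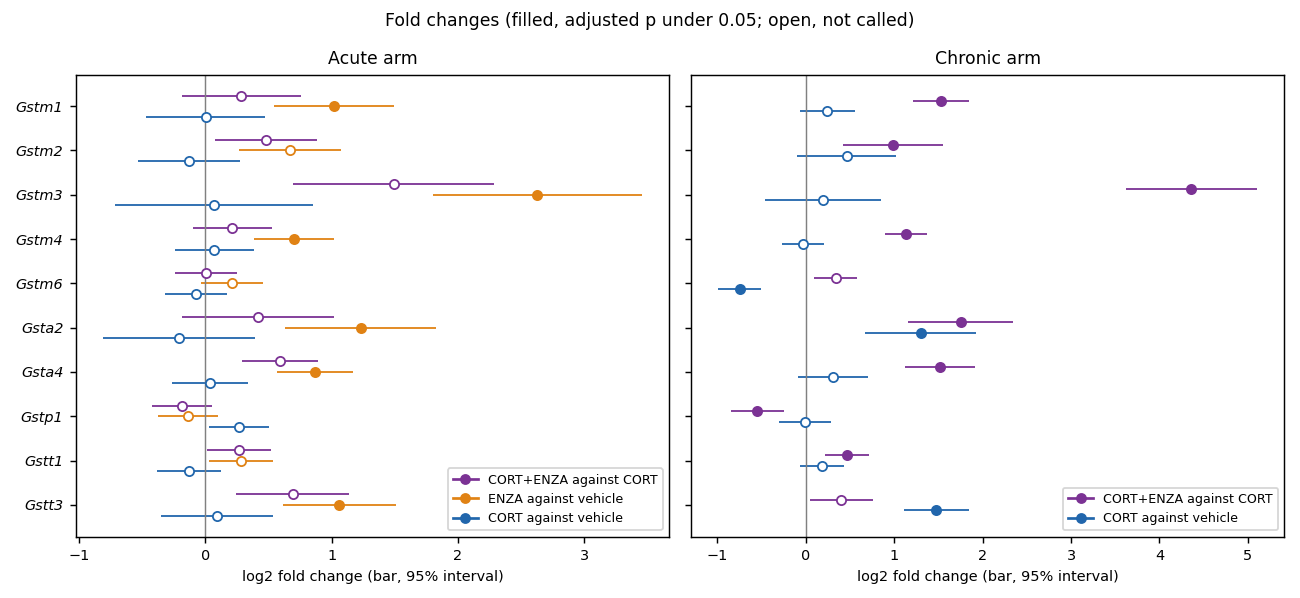
Log2 fold changes of the 10 members (horizontal axis) with 95% intervals as bars, from the edgeR fit of each arm, for CORT+ENZA against CORT and CORT against vehicle in both arms and ENZA against vehicle in the acute arm; a filled mark is a call at an adjusted p of 0.05. Gstm3 has the largest value in acute ENZA against vehicle (2.63) and in chronic CORT+ENZA against CORT (4.36). Gstp1 lies below 0 in both, but its acute interval includes 0 and only its chronic value is called.

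Whether the effects differed between the arms was tested directly, by contrasting the 2 effects in a joint fit of the 42 mice over 14138 genes. The effect of adding ENZA to CORT was larger in the chronic than in the acute arm for 3 members, all of the mu class, where 1.27% of all genes were called. The difference on the log2 scale was 2.83 ± 0.55 for Gstm3 (edgeR adjusted p = 0.00253), 1.21 ± 0.31 for Gstm1 (edgeR adjusted p = 0.0312) and 0.88 ± 0.21 for Gstm4 (edgeR adjusted p = 0.0166). The Gstm1 call was lost in 10 of the 42 fits that left out 1 mouse, with the highest edgeR adjusted p, 0.0627, without chronic CORT+ENZA mouse 18 (1.05 ± 0.30), while those of Gstm3 and Gstm4 were kept in all 42. Gsta4 (0.89 ± 0.26, edgeR adjusted p = 0.0804) and Gsta2 (1.30 ± 0.45, edgeR adjusted p = 0.155) were not called, but both were without chronic CORT mouse 1, Gsta4 at 1.13 ± 0.23 (edgeR adjusted p = 0.00579) and Gsta2 at 1.74 ± 0.40 (edgeR adjusted p = 0.0194).

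The CORT effect also differed between the arms for 3 members, where 6.17% of all genes were called. It was higher in the chronic arm for Gstt3 by 1.42 ± 0.31 (edgeR adjusted p = 0.00411) and for Gsta2 by 1.54 ± 0.46 (edgeR adjusted p = 0.0375), and lower for Gstm6 (-0.64 ± 0.18, edgeR adjusted p = 0.0274). In acute CORT against vehicle the same genes had log2 fold changes of 0.09, -0.21 and -0.07, none of them called. Over the 42 mice left out in turn, the call was lost in 11 fits for Gsta2 and in 6 for Gstm6, and in none for Gstt3. The highest edgeR adjusted p came without chronic CORT mouse 1, at 0.121 for Gsta2 (1.11 ± 0.41) and 0.0598 for Gstm6 (-0.59 ± 0.19). Leaving out chronic CORT mouse 1, acute CORT mouse L2A or acute vehicle mouse L31A left 1 member called. Because the arms differ in extraction kit as well as duration, these cannot be told apart as the source of the differences.

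Levels of Gstm1, Gstm3 and Gstm4 varied together from mouse to mouse. Across the mice of an arm, log levels of Gstm1 and Gstm3 correlated at r = 0.894 (24 acute mice) and 0.971 (18 chronic mice), and after removing the group means at 0.926 and 0.720. Gstm3 and Gstm4, which share no 50-base stretch, correlated at 0.873 and 0.984, and within groups at 0.817 and 0.905. Gsta2 and Gsta4 correlated at 0.879 and 0.943, and within groups at 0.892 and 0.781. These values are descriptions over mice that share group, depth and arm, and Gstm1 and Gstm3 also share reads. The acute values include ENZA mouse L29A, at 3 times the median of the other ENZA mice for Gstm1. It stood at 5.38 times that median for Gstm3, 2.02 times for Gstm4 and 2.83 times for Gsta2. The chronic values include the sets of CORT+ENZA mouse numbers described below, between which Gstm1, Gstm3 and Gstm4 differed. Correlations without that mouse or within those sets were not computed. Gstm6 followed Gstm1 in the acute mice (r = 0.785, within groups 0.779) and not in the chronic mice (-0.157, within groups -0.0637). Gstp1 had r of -0.120 (acute) and -0.622 (chronic) to Gstm1, but within groups the sign turned, at 0.287 and 0.27.

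**Figure D4:**
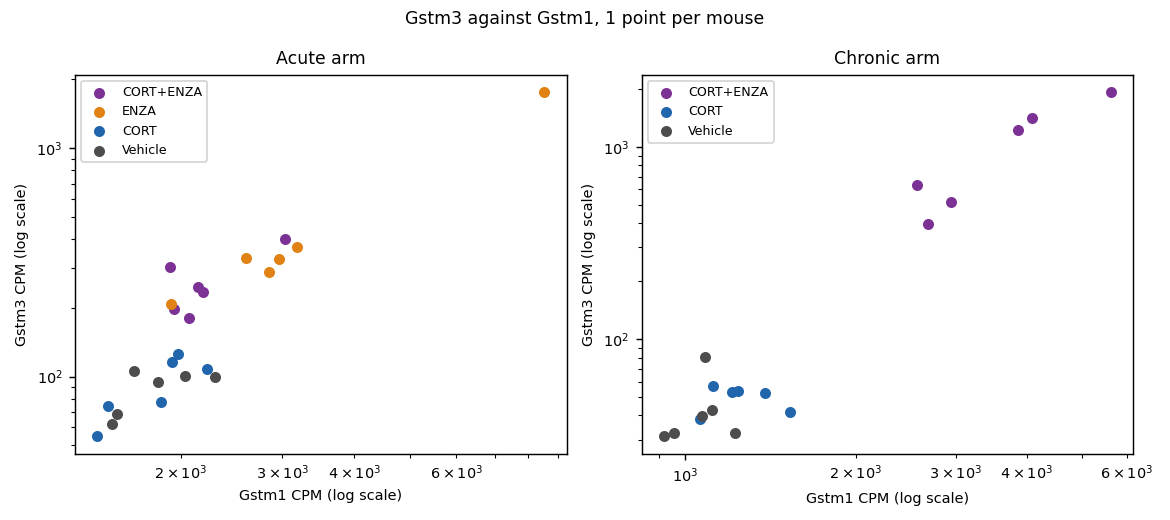
Gstm3 against Gstm1 in CPM (both axes logarithmic), 1 point per mouse, coloured by group, for the 24 acute and the 18 chronic mice. The chronic CORT+ENZA mice (Gstm3 398 to 1934 CPM) lie above all chronic CORT and vehicle mice, and acute ENZA mouse L29A (Gstm1 8525, Gstm3 1764 CPM) lies beyond the other acute mice on both axes.

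Chronic CORT+ENZA livers fell into sets that follow the mouse numbers, which the labels do not call a batch. Mice 16 to 18 had 1217 to 1934 CPM of Gstm3, and mice 4 to 6 had 398 to 632 CPM. For Gstm1 the values were 3869 to 5626 CPM in mice 16 to 18 and 2567 to 2945 CPM in mice 4 to 6, and for Gstm2 they were 302 to 335 CPM and 135 to 175 CPM. Gstm4 followed, at 117 to 141 CPM in mice 16 to 18 and 82.7 to 96.7 CPM in mice 4 to 6. Gsta2 and Gsta4 did not split this way: Gsta2 had 59.1 to 81.3 CPM in mice 16 to 18 and 53.1 to 70.5 CPM in mice 4 to 6. Even the lower set of Gstm3, at 398 CPM or more, lay above every chronic CORT mouse, in which numbers 1 to 3 and 25 to 27 had 41.9 to 57.1 and 38.6 to 53.3 CPM. Gstt1 split in CORT livers instead, at 349.9 to 377 CPM in mice 1 to 3 and 272.8 to 333 CPM in mice 25 to 27.

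Runs of consecutive numbers that hold mice of more than 1 group were also compared alone, which was added after the values were seen. Inside such a run each set of numbers (1 to 3, 4 to 6, 10 to 15 and 16 to 18) still holds a single group. Treatment and number set can therefore not be told apart. In mice 1 to 6, CORT+ENZA (4 to 6) was set against CORT (1 to 3). Over all genes edgeR called 801, 477 of them higher, and it called 4 members, all higher. The number of genes tested in the run fits is not given here, so the counts are not read as shares. The members called were Gstm3 (3.33 ± 0.20, edgeR adjusted p = 0.000145), Gstm1 (1.07 ± 0.13, edgeR adjusted p = 0.00198), Gstm4 (0.82 ± 0.09, edgeR adjusted p = 0.00116) and Gstt1 (0.40 ± 0.09, edgeR adjusted p = 0.0285). With 3 mice a group, Gsta4 (1.42 ± 0.37, adjusted p = 0.107) and Gsta2 (1.21 ± 0.45, adjusted p = 0.207) were not called by edgeR, nor were Gstp1 (-0.41 ± 0.14) and Gstm2, whose value was 0.18 ± 0.39 here and 0.98 ± 0.29 with all mice. In mice 10 to 18, CORT+ENZA (16 to 18) was set against vehicle (10 to 15). There edgeR called 985 genes, 632 of them higher, and 7 members, all higher. Gstm3 rose by 5.14 ± 0.31 (adjusted p = 1.06e-05) and Gstm1 by 2.10 ± 0.15 (adjusted p = 1.72e-05), while Gstt1, Gstp1 and Gstm6 were not called by edgeR, with adjusted p of 0.0861, 0.144 and 0.184.

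Among 12871 genes measured in both arms, those most like each member were ranked by the smaller of the acute (24 mice) and chronic (18 mice) correlation of log levels. For Gstm1 they were Gstm4 (smaller r 0.897), Gstm3 (0.894) and Nqo1 (0.878), the quinone reductase that is a standard NRF2 target. Nqo1 was also among the first 3 for Gstm2 (0.834), Gstm4 (0.866) and Gsta2 (0.880), and Ephx1, the microsomal epoxide hydrolase, among those for Gstm3 (0.870). Gsta4 was closest to Cyp3a59 (0.909), and Gstt1 was nearest to Acot13 (0.801) and Cyp2c54 (0.800). For Gstt3 they were 9030619P08Rik (0.888) and Akr1d1, a steroid reductase of bile acid synthesis (0.850). Gstm6 had other neighbours, the antigen presentation genes H2-Aa (0.703) and H2-Eb1 (0.671) and the phospholipid transfer protein Pltp (0.688). Gstp1 was closest to Gstp-ps (0.745), a pseudogene with which it shares sequence.

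The other glutathione S-transferases give the family context. Of 14 further genes tested in each arm, 0 were called in acute ENZA against vehicle by edgeR. Gsta1, named here as the near copy of Gsta2, stood at 5.58 ± 8.33 CPM in ENZA livers and 1.24 ± 0.98 CPM in vehicle livers (log2 fold change 2.18 ± 0.64, edgeR adjusted p = 0.0969). In chronic CORT+ENZA against CORT 3 rose and 1 fell. Gsta1 rose by 4.96 ± 0.74 (edgeR adjusted p = 0.000243) at low levels, 5.63 ± 7.66 CPM in CORT+ENZA livers and 0.17 ± 0.11 CPM in CORT livers, and Gstt2 rose by 0.81 ± 0.24 (edgeR adjusted p = 0.035). The pi class gene Gstp3 fell by 1.01 on the log2 scale (SE 0.21; edgeR adjusted p = 0.0044). In chronic CORT against vehicle 3 rose, among them Gsta3 (0.56 ± 0.13) and Gsto1 (0.50 ± 0.13), and 2 fell, among them Gstp3 (-0.98 ± 0.21).

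Genes of the pathways that act on this family were counted from lists chosen by name, with earlier results of these data known. The counts therefore describe the lists and do not test them. The lists share genes: Abcc3 of the CAR and PXR list is also in the glutathione list below, as are Gclc, Gclm and Gsr of the NRF2 list, among others. The shares of all genes called, to be read beside the counts, were 1.31% in acute ENZA against vehicle, 1.62% in acute CORT against vehicle and 0.175% in acute CORT+ENZA against CORT. They were 11.8% in chronic CORT+ENZA against CORT and 18.3% in chronic CORT against vehicle. Of 26 targets of CAR and PXR (with the receptors themselves), 13 were higher in acute ENZA against vehicle, 8 in acute CORT+ENZA against CORT and 18 in chronic CORT+ENZA against CORT, and none was lower. In that last comparison Cyp2c29, a cytochrome P450 inducible by CAR, rose by 2.06 ± 0.11, Cyp2c55 by 5.58 ± 0.29 and the carboxylesterase Ces2a by 2.03 ± 0.12. Of 25 genes of NRF2 and its targets, 2 rose in acute ENZA against vehicle, Nqo1 (1.18 ± 0.26, edgeR adjusted p = 0.0224) and Ephx1 (0.57 ± 0.10, edgeR adjusted p = 0.00222). The NRF2 count was 11 higher and 0 lower in chronic CORT+ENZA against CORT, with Ugdh at 1.05 ± 0.14 and Osgin1 at 1.75 ± 0.25. In chronic CORT against vehicle the CAR and PXR list gave 8 higher and 3 lower, with Cyp2b10 at 6.18 ± 0.37, and the NRF2 list 6 higher and 2 lower, with the carbonyl reductase Cbr1 at 1.46 ± 0.17.

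Of 21 genes that make, recycle or export glutathione and its conjugates, 1 rose in acute ENZA against vehicle, the canalicular conjugate pump Abcc2 (0.47 ± 0.10). In chronic CORT+ENZA against CORT 7 rose and 2 fell: the basolateral pump Abcc3 rose by 2.20 ± 0.17 and the glutathione reductase Gsr by 0.38 ± 0.09, while Cbs, which feeds cysteine into glutathione synthesis, was lower (-0.53 ± 0.10). In chronic CORT against vehicle 5 rose and 2 fell, with glutaredoxin Glrx at 0.97 ± 0.10. Of 14 glucocorticoid receptor genes, 5 rose in acute CORT against vehicle, with Lpin1 at 1.74 ± 0.27, and 3 rose and 1 fell in chronic CORT against vehicle, with Fkbp5 at 2.89 ± 0.40. In chronic CORT+ENZA against CORT these genes gave 0 higher and 2 lower. Of 16 genes of the androgen receptor and growth hormone axis, 1 fell in acute ENZA against vehicle, Hsd3b5 (-1.41 ± 0.30), and 2 rose in chronic CORT+ENZA against CORT, Cyp4a12a (1.62 ± 0.22) and Cyp4a12b (2.14 ± 0.24). These last counts, 2 of 14 and 2 of 16, are close to the 11.8% called among all genes and set neither list apart.

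The promoters of Gstm1 and Gstm3, the pair with the nearest coding sequence, are shown because their levels moved together but by different amounts. They are taken from RefSeq (GRCm38.p6, minus strand), end 25 bases after the annotated start, and span chr3:108017794-108018068 for the downstream of the 2 Gstm1 starts and chr3:107969150-107969424 for Gstm3. Capitals mark a match to 1 of 3 motifs searched on both strands: TGACNNNGC (the core of the antioxidant response element), AGGTCA (a nuclear receptor half-site) and AGAACA (a steroid receptor half-site).
Gstm1: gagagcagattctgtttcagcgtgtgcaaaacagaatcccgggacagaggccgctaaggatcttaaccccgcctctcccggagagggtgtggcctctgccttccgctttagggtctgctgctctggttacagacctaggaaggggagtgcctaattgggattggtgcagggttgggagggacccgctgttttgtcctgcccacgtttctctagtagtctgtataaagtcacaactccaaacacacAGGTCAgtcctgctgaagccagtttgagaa
Gstm3: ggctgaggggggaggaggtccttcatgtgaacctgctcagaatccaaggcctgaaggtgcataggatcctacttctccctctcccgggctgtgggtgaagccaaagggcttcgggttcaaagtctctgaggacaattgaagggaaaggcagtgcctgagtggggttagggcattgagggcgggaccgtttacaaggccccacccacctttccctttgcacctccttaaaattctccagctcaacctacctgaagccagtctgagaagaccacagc

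The capitals in Gstm1 are an AGGTCA beginning 5 bases before the start, and the Gstm3 window holds no match. RefSeq promoters were found for 9 of the 10 members, 14 windows in all of 250 bases before and 50 after a start. TGACNNNGC was found in 0 of the 14 windows, against 12.4% of the 32851 windows in the table. AGGTCA was in 1 of 14, against 16.3% of all windows, and AGAACA in 3 of 14, belonging to Gstm1 and Gstm6, against 19%. These counts describe the letters in these windows only.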

How the data were processed

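Liver mRNA of 42 mice was measured by 100 bp paired-end sequencing of stranded libraries, per the labels. The authors deposited raw counts per gene, 1 table per arm, neither normalized nor pooled. The submitters' processing notes name build mm10 (GRCm38), HTSeq 0.12.4, STAR 2.7.3a, MultiQC and FastQC. Neither the strand setting of HTSeq nor the annotation release is given in the sources used here, which leaves overlapping genes uncertain. The 5 HTSeq summary lines stayed out of library sizes and tests.

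Counts were fitted in R 4.3.3 with edgeR 4.0.16 (filterByExpr with a minimum count of 10 and a total of 15, TMM scaling, robust quasi-likelihood fit of all libraries of an arm), with Benjamini-Hochberg adjustment across every gene tested and calls at 0.05. Groups follow the treatment and duration labels, which give each library as a separate mouse. CPM are TMM-scaled, and log levels in correlations used a prior count of 2. A gene with 10% or more of its 50-base stretches shared with another gene was called uncertain. GENCODE M21 gave coordinates and transcripts, and RefSeq the promoters. The test was checked on simulated counts. Alternatives were DESeq2 1.42.0, limma-voom (limma 3.58.1), RLE size factors, other filters, fits of only the groups compared, and mice left out.

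All 10 members were described, with up to 3 called genes of smallest p named from each other list (other glutathione S-transferases, glutathione metabolism, CAR and PXR, NRF2, glucocorticoid receptor, and androgen and growth hormone axis) and the 3 genes most like each member. The members and lists were chosen with earlier results of these data known. No mouse number is shared between groups of the same arm, and the labels do not call runs of numbers a batch, so pairs were not formed. Sets of consecutive acute numbers (1 mouse of each group) entered as an alternative term, and runs of chronic numbers were compared after the values were seen.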

Additional observations from a re-analysis of the deposited data

Results flagged for a closer look

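In 70 combinations of a member and a group, 1 mouse lay apart from the other 5 in 13. The rule took the gap to the nearest mouse over the range of the group in CPM. Its rate of about 1 in 20 holds only for independent values with a normal spread. Members varied together from mouse to mouse, so the 13 are not independent and were not tested against that rate. Acute ENZA mouse L29A was high for 5 members: Gstm1 (8525 CPM, next 3185), Gstm3 (1764 CPM, next 369.8), Gstm2 (252.7 CPM, next 145.9), Gstm4 (181.7 CPM, next 105.1) and Gsta2 (114.7 CPM, next 47.98). Acute CORT+ENZA mouse L36A was high for Gstm1 (3029 CPM, next 2190), Gsta4 (73.65 CPM, next 54.13) and Gstt1 (402.8 CPM, next 303.7), and its pericentral hepatocyte markers summed to 9487 CPM, against 8025 to 8693 CPM in its group. Single genes were high in acute vehicle mouse L19A (Gstt1, 359.7 CPM, next 273.7), chronic vehicle mouse 14 (Gstm3, 80.85 CPM, next 42.79), chronic vehicle mouse 10 (Gstp1, 959.4 CPM, next 699.4) and chronic CORT mouse 1 (Gsta2, 44.39 CPM, next 20.81). Chronic CORT+ENZA mouse 18 was low for Gstt1 (284 CPM, next 465.2).

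Effects differed between the arms, by a test of the difference itself, in 6 cases. Chronic minus acute, the CORT effect differed by 1.543 for Gsta2, 1.417 for Gstt3 and -0.641 for Gstm6 on the log2 scale. The effect of ENZA added to CORT differed by 2.834 for Gstm3, 1.209 for Gstm1 and 0.8838 for Gstm4.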

How the results depend on the processing

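Of 3660 alternative values of the 110 member fold changes, 3496 were counted as the same. These kept a call in the same direction, or stayed uncalled within the SE of the main value, where the sign could turn. Of the rest, 124 lost the call, 26 gained one, 14 uncalled values moved by more than that SE and 0 called values turned round. Of the 6 members called in acute ENZA against vehicle, 2 were called with no low-count filter and 3 when only those groups were fitted. In acute CORT+ENZA against CORT (0 called), DESeq2 and limma-voom each called 2 and a fit of only those groups 1. DESeq2 called 1 in acute CORT+ENZA against ENZA. Acute CORT+ENZA against vehicle (2 called) gave 1 with no filter and 0 without mice L19A and L36A together. For the added ENZA effect, chronic minus acute (3 called), limma-voom called 5. In chronic CORT+ENZA against CORT (8 called), mice 1 to 6 alone, added after seeing the data, gave 4.

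With each mouse left out in turn, calls ranged from 3 to 6 in acute ENZA against vehicle (3 without vehicle L1A, L13A or L19A or ENZA L11A or L29A), from 0 to 1 in acute CORT+ENZA against CORT (1 without ENZA L29A) and from 0 to 1 against ENZA (1 without ENZA L23A). The range was 0 to 3 in acute CORT+ENZA against vehicle, with 1 or 0 after leaving out any of 16 mice, 5 to 9 in chronic CORT+ENZA against CORT (5 without CORT 25), 1 to 3 for the CORT effect, chronic minus acute, and 2 to 5 for the added ENZA effect (5 without chronic CORT 1). Counts over all genes moved more: 222 in acute CORT against vehicle became 432 with DESeq2, 356 with limma-voom and 96 from only those groups, 180 in acute ENZA became 388, 308 and 94 (90 unfiltered), and 24 in acute CORT+ENZA against CORT became 59 and 50 with the first tools. The 248 against ENZA became 461 and 634 (156 unfiltered) and the 339 against vehicle 584 and 674 (203 from only those groups). The 2434 in chronic CORT+ENZA against vehicle became 3856 with limma-voom, the 873 for the CORT effect 1683 (509 unfiltered), and the 179 for the added ENZA effect 460 (319 with DESeq2). All genes called within runs of chronic numbers were 801 in mice 1 to 6 and 985 against vehicle in mice 10 to 18. Pairs were not formed, because groups of the same arm share no mouse number. With sets of consecutive acute numbers as a term, which need not mark pairs, 4 members were called in acute ENZA against vehicle (Gstm1 and Gsta2 lost) and 2 in acute CORT+ENZA against vehicle. No member fell under 90 reads in any mouse, and the effect of shared sequence on Gstm1, Gstm3, Gstm6, Gsta2 and Gstp1 was not measured.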
